A study of Mus musculus with 2 samples.

Results

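The whey acidic protein (WAP) family was examined through 6 of its genes, Wap, Wfdc1, Wfdc2, Wfdc12, Wfdc18 and Slpi. They were read by 6 probe sets, 1 for each gene, out of 22690 probe sets and 12393 named genes on the array. The genes were taken by name, Wfdc18 also under its older symbol Expi, and were singled out because members had opposite differences between these same arrays, so the values below are a description and cannot be tested on them. Proteins of this family are small and secreted and share the WAP domain, a compact fold held together by disulfide bonds that in several members blocks serine proteases. Wap itself is the main whey protein of mouse milk, made by secretory luminal cells in late pregnancy and lactation under prolactin and glucocorticoids, whereas Slpi and Wfdc2 are made by many epithelia.

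Mammary tumors were induced in female wild-type FVB mice, 5 weeks old at the start, with the progestin medroxyprogesterone acetate (15 mg) and 4 weekly doses of 1 mg of the carcinogen DMBA by gavage, which both groups received. GW9662, an irreversible inhibitor of the nuclear receptor PPARγ, was given at 0.1% of the diet from 1 day after the last DMBA dose, and control mice stayed on standard chow. RNA from the tumors of 5 mice was pooled for each diet and hybridized to 1 Affymetrix mouse array per diet. There were thus no replicates and no test between the diets, and precision is limited by having only 2 arrays. Mice, tumors and arrays cannot be told apart as sources of a difference, nor can fewer cells of a type and less RNA per cell.

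Signals are linear intensities in arbitrary units. Both arrays had a 2% trimmed mean of 500.2. Olfactory receptor probe sets, used as a background for genes that a mammary tumor should not express, reached at most 25.8 on the GW9662 array and 25.2 on the control array over 33 probe sets. Signals below 100 were treated as a floor: a fold against a signal below it is a lower bound, computed with 100 in its place, and no fold is given where both lie below it. The log2 ratio of GW9662 over control had an SD of 0.36 between probe sets of 1 gene. This was taken over the 2639 genes with more than 1 probe set at a mean signal of at least 100. Among the 615 genes whose probe sets had a mean signal of at least 1000 this SD was 0.24. It holds no variation between mice.

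Wap and Wfdc12 differed in opposite directions, and 3 other members were nearly level. Wap was lower in tumors from GW9662-treated animals and Wfdc12 was higher. Wfdc2, Wfdc18 and Slpi had high signals on both arrays with log2 ratios between -0.32 and 0.16. Wfdc1 was below 100 on both. By the criteria of a 3-fold difference and 300 or more on 1 of the arrays, 1 of the 6 members was lower and 1 was higher. Over the 6053 genes with such a signal, 2.68% were at least 3-fold lower and 0.215% were at least 3-fold higher. At 2-fold, again 1 member was lower and 1 was higher, beside 4.68% and 1.02% of these genes. The members were chosen on this contrast, so nothing is read from their count.

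**Figure D1:**
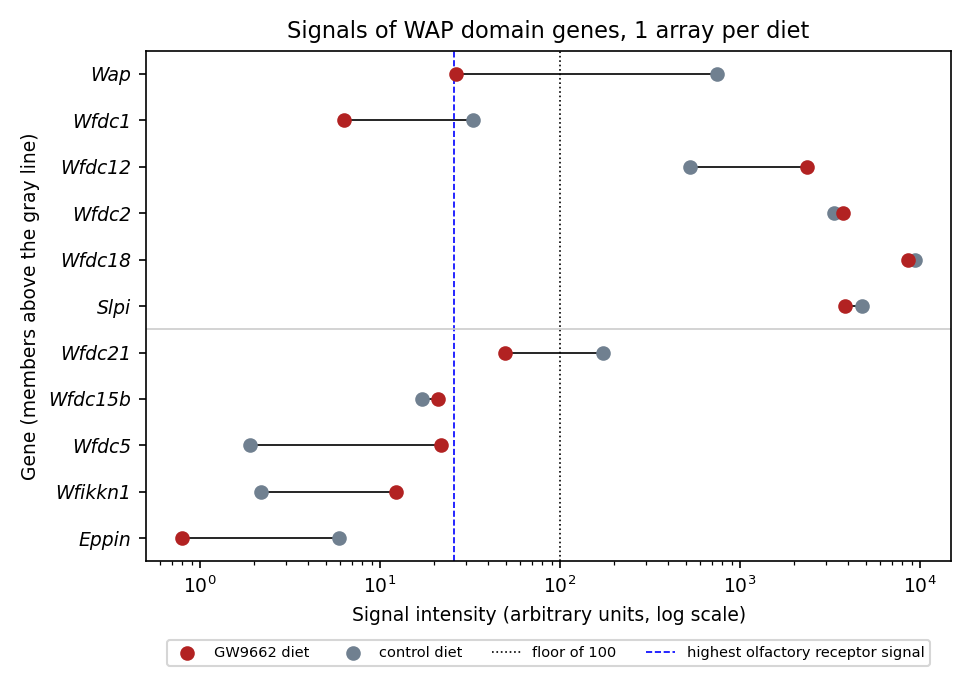
Signal of each WAP domain gene on the GW9662 array (red) and the control array (gray), on a log x axis in arbitrary units, with 1 gene per row and the 6 members above the gray line. The line joining the points is long for Wap (26.6 on the GW9662 array and 750.0 on the control array) and for Wfdc12 (2350.7 and 526.3) and short for Wfdc2, Wfdc18 and Slpi. Most genes under the gray line lie within the range of the olfactory receptors.

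The DNA just upstream of the start sites of 3 members is printed to set side by side the member that was lower, the member that was higher and a bright member that was nearly level. Each run is the 250 bases that end at the base before the RefSeq start site, 5′ to 3′ on the strand of the gene in GRCm38.p6. The Wap run is chr11:6638650-6638899 (minus strand), that of Wfdc12 is chr2:164190559-164190808 (minus strand) and that of Wfdc18 is chr11:83708754-83709003 (plus strand). Capitals mark matches on either strand to the motifs searched, which were TTCNNNGAA (bound by STAT factors), TGGCA (a half-site of nuclear factor I), GGAAGT (an ETS motif), TATAAA and the perfect direct repeat with 1 base of spacing to which PPAR and RXR bind.
Wap: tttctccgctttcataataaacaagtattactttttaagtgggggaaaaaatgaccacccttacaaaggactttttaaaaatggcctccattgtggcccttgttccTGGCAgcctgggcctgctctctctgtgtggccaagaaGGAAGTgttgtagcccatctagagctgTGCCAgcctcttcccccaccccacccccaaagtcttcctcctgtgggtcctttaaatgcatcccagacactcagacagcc
Wfdc12: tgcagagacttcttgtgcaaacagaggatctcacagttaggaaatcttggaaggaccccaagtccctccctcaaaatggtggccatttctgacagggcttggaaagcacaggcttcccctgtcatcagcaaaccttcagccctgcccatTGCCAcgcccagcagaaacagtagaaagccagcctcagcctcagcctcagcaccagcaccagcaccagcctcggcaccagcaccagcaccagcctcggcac
Wfdc18: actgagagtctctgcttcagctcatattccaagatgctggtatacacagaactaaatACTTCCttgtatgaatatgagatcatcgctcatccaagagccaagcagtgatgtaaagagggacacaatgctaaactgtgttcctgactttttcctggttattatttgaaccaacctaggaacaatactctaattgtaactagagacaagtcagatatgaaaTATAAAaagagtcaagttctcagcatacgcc

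Windows were matched for 5 of the 6 members, not for Wfdc1. The Wap run held 2 nuclear factor I half-sites, at -144 to -140 and at -80 to -76 from the start site, and 1 ETS motif between them, at -107 to -102. No match overlapped another. Wfdc12 held 1 nuclear factor I half-site at -101 to -97 and none of the other motifs. Wfdc18 held a TATAAA at -31 to -26 and an ETS motif at -193 to -188. Slpi and Wfdc2, not printed, each held 1 nuclear factor I half-site, and Slpi an ETS motif in addition. Of all 32851 promoter windows of this length, 42.8% held the nuclear factor I half-site, 19.7% the ETS motif, 12.4% the TATAAA and 7.02% the STAT motif. The PPAR repeat was in 0.0335% of them. Neither the STAT motif nor the PPAR repeat was found in the runs of the 5 members, which says only that these letters are not in these windows.

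Wap was the member with the lower signal in GW9662 tumors. It had a signal of 26.6 on the GW9662 array and 750.0 on the control array, at least 7.50-fold lower. The GW9662 signal lay just above the highest olfactory receptor, so its size cannot be read below the floor. As measured, the log2 ratio was -4.82, and it was -2.91 with the GW9662 signal set to 100. Its probe set carries the suffix that Affymetrix gives to sets that read several transcripts of the same gene. The 3 genes nearest to Wap in log2 signal on both arrays were Pnpla3, a lipase of lipid droplets, Fabp3, a fatty acid binding protein of muscle and the mammary gland, and the dehydrogenase Adhfe1. Pnpla3 had 31.5 on the GW9662 array and 865.0 on the control array, at a Euclidean distance of 0.32 on the log2 scale. Fabp3 had 33.2 on the GW9662 array and 696.2 on the control array (distance 0.34), and Adhfe1 had 28.4 and 580.5 (0.38). With 2 arrays such a likeness is only that of a pair of signals, and all of these GW9662 signals were below the floor.

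Wfdc12, known in the mouse as an antibacterial WAP protein, was the member with the higher signal. It had a signal of 2350.7 on the GW9662 array and 526.3 on the control array, 4.47-fold higher, with a log2 ratio of 2.16. Both signals were far above the olfactory receptor range and the floor. Among the genes with a signal of at least 300, only Rasgrf1, Slc5a8 and Pcp4 had a larger ratio. The genes nearest to it in log2 signal on both arrays were Ccn1, a matrix protein (1563.5 on the GW9662 array and 695.7 on the control array, distance 0.71), Crabp1, a retinoic acid binding protein (3207.8 and 775.9, 0.72), and Avpi1, a vasopressin-induced gene (2045 and 861.6, 0.74).

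The bright epithelial members differed little. Slpi, which inhibits neutrophil elastase and cathepsin G, had a signal of 3823.2 on the GW9662 array and 4761.4 on the control array, 1.25-fold lower, with a log2 ratio of -0.32. Of the genes with a signal of at least 300, 41.7% had a log2 ratio of this size or more in either direction. Wfdc18, a secreted protein of the mouse mammary gland also called extracellular proteinase inhibitor, had 8573.2 on the GW9662 array and 9392.6 on the control array, a log2 ratio of -0.13. Its probe set has the suffix for sets that match transcripts of more than 1 gene, so signal from a close paralog cannot be separated from it. Wfdc2, which in humans is the tumor marker HE4, had 3742.7 on the GW9662 array and 3345.4 on the control array, a log2 ratio of 0.16. Ratios as large as these were found for 74.4% and 68.1% of genes. For Wfdc18 and Wfdc2 the difference was below the SD of 0.24 between probe sets of bright genes. For Slpi the difference lay between this SD and that of 0.36 over the 2639 genes.

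Wfdc1, which in the rat prostate is a growth inhibitor made by the stroma, had a signal of 6.3 on the GW9662 array and 32.9 on the control array. The first lay within the range of the olfactory receptors and the second just above it, so no direction was read. Another 17 genes with a WAP domain were listed, and 5 of these were on the array under a single name. Wfdc21 had 49.4 on the GW9662 array and 173.3 on the control array, at least 1.73-fold lower, but missed the signal minimum of 300. The remaining 4 were within the olfactory receptor range on both arrays. These were Wfdc15b, an antibacterial paralog (21.1 on the GW9662 array and 17.1 on the control array), the epidermal gene Wfdc5 (21.9 and 1.9), Wfikkn1, which binds growth differentiation factors (12.3 and 2.2), and Eppin, a sperm surface protein (0.8 and 5.9).

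**Figure D2:**
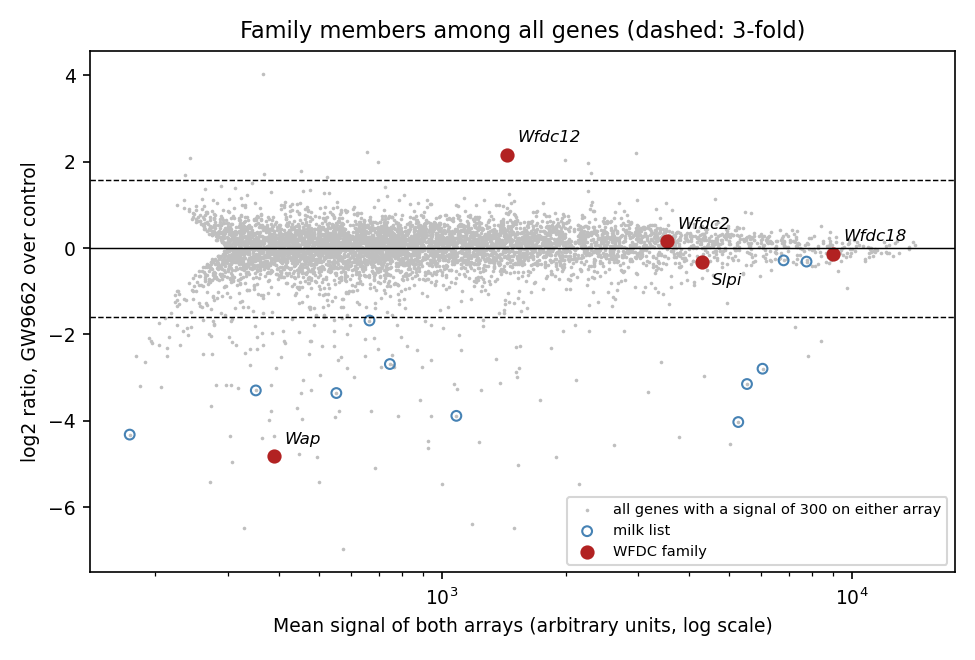
Log2 ratio of GW9662 over control on the y axis against the mean signal of both arrays on a log x axis, for genes that reached 300 on 1 of the arrays, with dashed lines at 3-fold. Each point is 1 gene at its brightest probe set, red for the WFDC family and blue rings for the milk list. Wap lies at -4.82, below the milk genes drawn, Wfdc12 lies at 2.16 above nearly all genes, and Wfdc18, Slpi and Wfdc2 lie near the line of equal signals.

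Wfdc12, Slpi and Wfdc2 lie near each other in the genome, and most measured neighbors of the 6 members were dim. In the RefSeq gene order of GRCm38.p6, Wfdc12, Slpi and Wfdc2 are on chromosome 2 and Wfdc1 is on chromosome 8. Wap and Wfdc18 are both on chromosome 11 but lie far apart, as the coordinates given above show. For each member the 2 nearest genes with a named probe set on either side were read, 24 genes in all. Only 5 of them reached a signal of 300, and none of these 5 differed 3-fold, beside 2.68% lower and 0.215% higher over all genes, so nothing is read from this count. The genes that flank Wap were Tbrg4, a mitochondrial protein (159.0 on the GW9662 array and 158.3 on the control array), and Ramp3, a receptor activity modifier (106.1 and 153.6). On both sides of Wfdc12 all 4 neighbors, Kcns1, Wfdc5, Wfdc15b and Svs2, were within the olfactory receptor range on both arrays. Next to Wfdc18, the chemokine gene Ccl4 had 41.7 on the GW9662 array and 71.6 on the control array and the paralog Wfdc21 had the values given above. Matn4, a matrix protein gene next to Slpi, had 66.0 on the GW9662 array and 213.0 on the control array. Over the 12 neighbors that reached 100 on 1 of the arrays, log2 ratios ran from -1.81 at Wfdc21 to 0.33 at Cotl1, an actin-binding protein gene near Wfdc1.

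Among milk genes, Wap stood with the majority that were lower. Of the 15 genes of a milk list without Wap on the array, 11 reached a signal of 300, and 9 were at least 3-fold lower in GW9662 tumors and 0 were higher. Among all 6053 genes that reached 300, 2.68% were at least 3-fold lower and 0.215% higher. The median log2 ratio was -2.97 over the 12 milk genes with a mean signal of at least 100, all of them lower. Over all 8009 genes with such a signal, 47.1% were lower. The alpha casein Csn1s1 had 609.1 on the GW9662 array and 9944.5 on the control array, 16.3-fold lower, and Lalba, the milk protein that completes lactose synthase, had 16.5 and 329.6, at least 3.30-fold lower. Csn3, the casein that coats the micelle, was near level at its brightest probe set (6908.0 on the GW9662 array and 8575.0 on the control array). Mfge8, a protein of the milk fat globule, had a log2 ratio of -0.28. These 2 genes were named after their values were seen. The size of the difference thus varied widely among milk genes, and the log2 ratio of Slpi, -0.32, was close to that of Csn3, -0.31.

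Genes of prolactin and STAT5 signaling, the pathway that drives Wap in the lactating gland, differed less than Wap at their brightest probe sets. Wap was chosen for its difference on these arrays, so that contrast is a description only. Of 16 genes listed, 15 were on the array under a single name, and the prolactin receptor gene Prlr was not among them. Of the 12 that reached a signal of 300, 0 passed 3-fold in either direction at their brightest probe sets. Over all genes with such a signal, 2.68% were at least 3-fold lower and 0.215% higher, so nothing is read from this count. The median log2 ratio was -0.15 over 12 genes, 7 lower and 5 higher. Elf5, an ETS factor of the secretory lineage, had 2040 on the GW9662 array and 4138.4 on the control array, 2.03-fold lower. A dimmer Elf5 probe set was below 100 on both arrays. Cebpb, which binds milk gene promoters, had 4053.6 on the GW9662 array and 4721.4 on the control array, and Nfib, a nuclear factor I gene, had 3393.9 and 2805.6. A dimmer Nfib probe set had 553.9 on the GW9662 array and 129.7 on the control array. That probe set met the criteria, while the brightest one did not. The dimmer Cebpb probe set had 650.5 on the GW9662 array and 1458.7 on the control array, a log2 ratio of -1.17. The remaining genes were named after their values were seen. At the brightest probe sets, the largest difference in the list was that of Tnfsf11, the RANK ligand, with a log2 ratio of 1.32. Tnfsf11 had 3247.9 on the GW9662 array and 1300.1 on the control array, and its dimmer probe set had 409.8 and 233.3. The kinase gene Jak2 had 1118.6 on the GW9662 array and 847.1 on the control array, and its dimmer probe set had 310.2 and 326.3. Stat5a had 622.3 on the GW9662 array and 833.7 on the control array, and its dimmer probe set had 65.2 and 167.2. Stat5b had 428.3 on the GW9662 array and 554.5 on the control array, and its dimmer probe set was below 100 on both. The glucocorticoid receptor gene Nr3c1 had 557.7 on the GW9662 array and 1001.8 on the control array, 1.80-fold lower. A second Nr3c1 probe set had 379.9 and 742.4, and the dimmest was below 100 on both arrays. Cish, a STAT5 target that dampens cytokine signaling, had 344.1 on the GW9662 array and 582.3 on the control array.

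Most of the listed serine proteases and related genes were dim or level, and whether they meet these inhibitors was not tested. Of 25 proteases and related genes on the array, 8 reached a signal of 300 and 0 of these passed 3-fold. Over all genes with such a signal, 2.68% were at least 3-fold lower and 0.215% higher, so nothing is read from this count. The median log2 ratio was 0.02 over 10 genes, 4 lower and 6 higher. Grn, the progranulin that Slpi protects from cleavage, had 4538.5 on the GW9662 array and 4465.3 on the control array. St14, an epithelial membrane protease, had 1831.8 on the GW9662 array and 1570.5 on the control array, while the membrane protease Tmprss2 had 740.6 and 2084.3, 2.81-fold lower. The neutrophil proteases that Slpi is known to inhibit were within the olfactory receptor range, Elane with 3.5 on the GW9662 array and 21.4 on the control array and Ctsg with 3.3 and 6.9. These 2 genes were named after their values were seen.

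Protease inhibitors outside the family included 1 gene past the criteria. Timp4, an inhibitor of metalloproteinases, had a signal of 12.5 on the GW9662 array and 531.3 on the control array, at least 5.31-fold lower. The median log2 ratio of the list was -0.20 over 15 genes, 8 lower and 7 higher. Its brightest genes, Cst3, Anxa1 and Spint2, had log2 ratios of -0.33, -0.22 and 0.17. Of 17 genes of epithelial defense on the array, a group to which Slpi and Wfdc12 belong by function, 1 was lower and 1 was higher by the criteria. The iron-binding milk protein lactoferrin (Ltf), also on the milk list, had 200.7 on the GW9662 array and 1291.2 on the control array, 6.43-fold lower. The alarmin Il33 was 3.94-fold higher. The median log2 ratio of the list was -0.24 over 12 genes, and 9 of its genes reached a signal of 300. In the list of other inhibitors 14 genes did. Over all genes with such a signal, 2.68% were at least 3-fold lower and 0.215% higher, so nothing is read from these counts of 1.

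**Figure D3:**
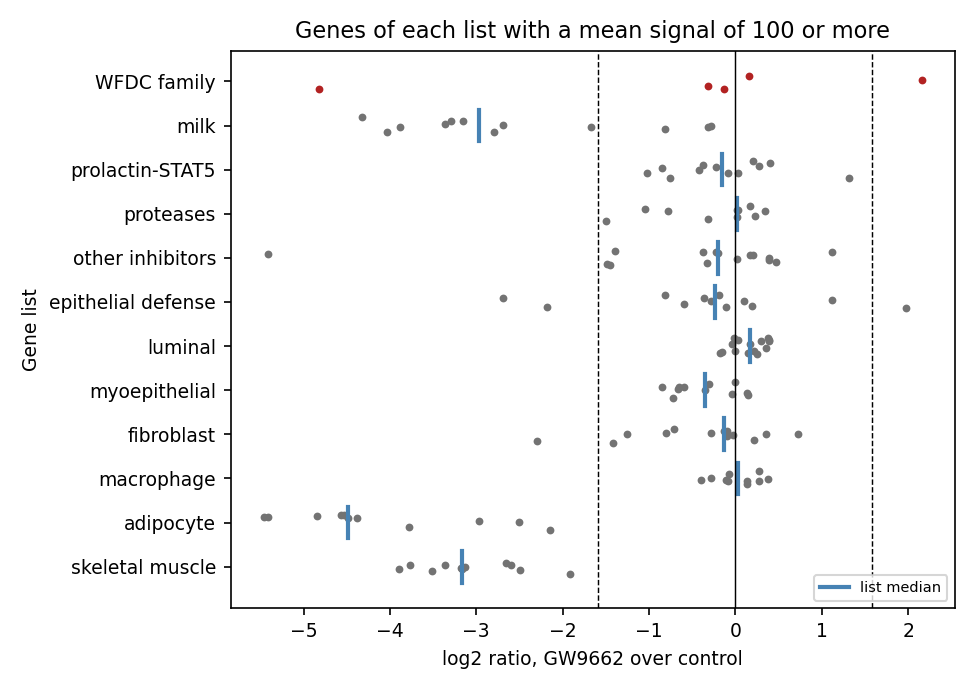
Log2 ratio of GW9662 over control on the x axis for the genes of each list with a mean signal of at least 100, 1 point per gene and list, with the WFDC family in red, blue bars at list medians and dashed lines at 3-fold. The milk, adipocyte and skeletal muscle lists lie to the left, with medians of -2.97, -4.48 and -3.17, and the luminal list is near 0, while the WFDC family has points at both ends.

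Markers of the cells that a mammary tumor can hold did not all move with Wap or Wfdc12. Of 15 luminal markers 14 reached a signal of 300, and 0 passed 3-fold. Their log2 ratios ran from -0.18 to 0.39, their median was 0.17, and their summed signal was 66398 on the GW9662 array and 62488 on the control array. Myoepithelial markers had a median of -0.35 over 11 genes, which all reached 300, and 0 passed. Fibroblast markers had a median of -0.13 over 13 genes, with Dpt, a matrix protein gene (513.1 on the GW9662 array and 2522.2 on the control array), as the 1 gene at least 3-fold lower. Macrophage markers had a median of 0.03 over 10 genes. The neutrophil list had a median of -0.13 over 4 genes. Of its 11 measured genes 6, among them Elane and Mpo, were within the olfactory receptor range, and Ltf was the 1 gene past the criteria. Of 14 keratinization genes only 2 reached 300 and 0 passed, and 7 were within that range. Over all genes that reached 300, 2.68% were at least 3-fold lower and 0.215% higher, so nothing is read from these counts of 0 or 1.

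Fat and muscle markers moved with Wap. All 11 measured adipocyte markers were at least 3-fold lower, with a median log2 ratio of -4.48 and a summed signal of 7746 on the GW9662 array and 66296 on the control array. Of 12 skeletal muscle markers, 10 reached a signal of 300 and all 10 were at least 3-fold lower. The muscle list had a median of -3.17 over 11 genes and sums of 1403 on the GW9662 array and 12055 on the control array. Of all 6053 genes that reached 300, 2.68% were at least 3-fold lower and 0.215% higher. In a list of salivary gland and lymph node markers, the amylase gene Amy1 was at least 13.3-fold lower. It had 39.0 on the GW9662 array and 1330.7 on the control array. The only other gene of this list above the floor, Ighm, was level. Ighm had 220.6 on the GW9662 array and 235.4 on the control array, a log2 ratio of -0.09. Immunoglobulin transcripts were not all level, as some outside the list, named after their values were seen, were lower. Igha had 394 on the GW9662 array and 2686.2 on the control array, Jchain had 99.8 and 688.2, and Igkv8-30 had 104 and 318.2. Cd2, Cd3e and Cd79a of this list were below the floor on both arrays. The other defining salivary genes of the list, Bpifa2 and Prol1, were within the olfactory receptor range on both arrays. Smr2, a submaxillary gland gene outside the list and named after its values were seen, had 60.8 on the GW9662 array and 575.7 on the control array. The part of the fat and muscle content in the lower Wap signal was not tested. With 1 pool per diet the cell content of a pool and the diet cannot be told apart.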

How the data were processed

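The values deposited by the authors are linear signal intensities, made with Affymetrix GeneChip Operating Software, with 1 value for each probe set and array. The sources used here do not state the signal algorithm, its scaling or the presence calls. Signals were used without further scaling, and the 3 signals of 0 were read as 0.1 for log2 ratios. Probe sets were named through a platform annotation, with symbols updated by gene identifier to GRCm38.p6. A single gene was named for 20380 probe sets, 691 had several genes and 1555 none, and 64 were array controls. For each gene the probe set brightest on average was taken. Thresholds of 300 and 3-fold follow the study's methods.

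Members and gene lists were chosen with earlier results of these data known. Named were all WAP domain genes, then genes of each list at least 3-fold different or its brightest 3, or, for long lists, only some of these, and the 3 genes nearest to a member past 3-fold. Genes that neighbor the members and the promoter motifs were added after the signals were seen. The settings tried were the scaling, the pseudocount, the floor, the signal minimum, the fold and the choice of probe set. The counting rule was tested on simulated data. Promoter sequences are from RefSeq. Computations ran in Python 3.11.15 with pandas 2.3.3 and numpy 2.4.6, and figures were drawn with matplotlib 3.10.9.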

Additional observations from a re-analysis of the deposited data

How the results depend on the processing

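Of 30 values of the 6 members under other settings, 26 moved by less than 0.36, the SD between probe sets of 1 gene. The choice of probe set is not counted, since each member had 1. Many of these values could not have moved that far, so nothing is read from the count. Centring and scaling to Gapdh and Actb each take 1 constant, -0.01 and -0.12, from the log2 ratio of every gene. The floor cannot change Wfdc2, Wfdc12, Wfdc18 or Slpi, whose signals were all above it. The exceptions among the 30 values were the dim signals of Wap and Wfdc1. Wfdc1 was below the mean signal of 100 required for the SD. With 16 added to each signal, the log2 ratio was -4.17 for Wap and -1.13 for Wfdc1, and with signals below 100 set to 100 it was -2.91 and 0. Wap stayed the 1 member at least 3-fold lower and Wfdc12 the 1 that was higher under every setting of the count except one: with no signal minimum, 2 members were lower, the second being Wfdc1. Over all genes, 162 were lower and 13 higher, against 248 and 20 with a minimum of 100, 779 and 392 with none, and 283 and 62 at 2-fold. With signals below 100 set to 100, the median of the muscle list was -2.59 and that of the salivary and lymph node list, which rests on 2 genes and was -2.59 as deposited, was -1.91. With no signal minimum the salivary and lymph node list had -0.55. Signals under the floor limit what can be said of Wap, Wfdc1 and most other WAP domain genes. No paired analysis was possible because each diet had 1 array, and no replicate could be left out.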
